A study of Mus musculus with 4 samples.

Results

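Natural killer-like cells (NK-like cells) were found among sorted splenic B220+IgD- cells by their transcripts, and they numbered 143 of 39009 cell barcodes. A barcode was taken as NK-like when it was absent from the deposited table of annotated germinal center B cells and drew less than 8% of its unique molecular identifiers (UMIs) from mitochondrial genes. It also needed at least 2 UMIs of Nkg7 and at least 1 of Klrd1, no UMI of Cd3e, Cd3d, Cd3g, Cd8a or Cd8b1, and at most 2 UMIs of Cd79a and Cd79b together. The cells were thus chosen by these measured values, whose levels are given as description, with no test. The cells came from 4 libraries, each from the spleen of a single mouse taken on day 10 of the response to sheep red blood cells (SRBC), and the mice were females of 8 weeks on a C57BL/6J background. Every mouse carried Cγ1-cre, which is active in germinal center B cells: the WT mouse (n = 1) had that allele alone, the C mouse (label C_het_KO) also had 1 floxed Crebbp allele, the K mouse (K_het_KO) 1 floxed Kmt2d allele, and the CK mouse (CK_het_DKO) both. NK cells are not the cells in which this Cre is known to act, and these data do not show whether an allele was deleted in them. With 1 library per genotype, no difference between genotypes could be tested, and intervals given for a library are 95% intervals that cover counting error only.

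NK cells are innate lymphocytes that kill infected or transformed cells without rearranged antigen receptors. They read target cells through germline-encoded receptors: NKp46 (Ncr1), NKG2D (Klrk1) and the activating Ly49 receptors pass signals through the adaptors DAP12 (Tyrobp), FcRγ (Fcer1g) and DAP10 (Hcst), while inhibitory Ly49 receptors and the CD94 and NKG2A pair (Klrd1 and Klrc1) bind MHC class I. Killing uses perforin and granzymes released from granules. B220 is an isoform of CD45 (Ptprc) that some activated or maturing mouse NK cells carry, and counts from the 3' end of transcripts cannot tell its isoforms apart. Ptprc was detected in 136 of the 143 cells.

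Markers that the rule did not use fitted the name of these cells. Ncr1, the receptor NKp46, had at least 1 UMI in 34 of 37 WT cells, 29 of 32 C cells, 26 of 31 K cells and 35 of 43 CK cells, or 86.7% of all NK-like cells (exact Clopper-Pearson interval 80.0 to 91.8%). The share in CD8 T cells with Ccl5 of the same libraries was 0.398% of 1004. With each cell thinned to 1000 UMIs, the shares were 60.3% and 0.100%. Tyrobp and Fcer1g were detected in all 143 NK-like cells, against 2.29% and 2.49% of the CD8 cells. Klrb1c, which encodes the NK1.1 antigen, was detected in 123 cells, and Eomes, the transcription factor of conventional NK cells, in 82. Eomes was also present in CD8 cells. Over all UMIs its NK-like level was 3.63 times that of CD8 cells, against 712 times for Ncr1. Gzma, granzyme A, was detected in 102 cells (71.3%), against 5.18% of the CD8 cells, and thinned 67.4% against 3.41%. The median depth was 2535 UMIs per NK-like cell, with a range of 699 to 9548, and the median of the CD8 cells was higher in each library (2684 to 4327, against 2117 to 3107), so depth does not favour detection in the NK-like cells.

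**Figure D1:**
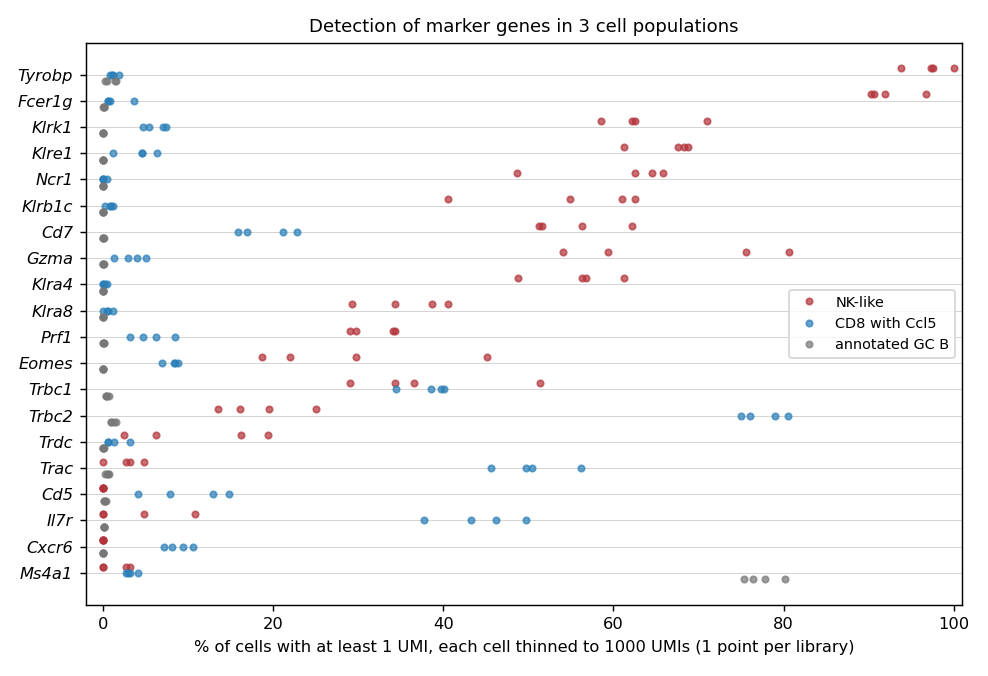
Percent of cells with at least 1 UMI of each gene (x axis) after each cell was thinned to 1000 UMIs, for 20 genes (y axis), with 1 point per library for the NK-like cells, the CD8 cells with Ccl5 and the annotated germinal center B cells. The NK-like points for Ncr1 lie between 48.6 and 65.9%, those of the CD8 cells at 0.461% or less, and Cd5 and Cxcr6 are at 0 in all 4 NK-like libraries.

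Markers of other cell types were read in the same cells. Cd5, a T cell marker, had a UMI in 0 of 143 cells, which allows a share of cells with a UMI of up to 2.10% and sets no limit on cells that express it. Of 10 markers of type 1 innate lymphoid cells, 6 were at 0, among them Cxcr6, Itga1 and Tmem176b, while Il7r was detected in 11 cells, Gpr183 in 2 and Il2ra and Tnfsf10 in 1 each. Their summed level was 0 to 138 UMIs per 1000000 UMIs of the summed cells (CPM) in the NK-like cells, against 728 to 985 CPM in the CD8 cells. Il7r made most of the CD8 sum, at 494 to 754 CPM. Of 8 plasmacytoid dendritic markers, 3 were at 0, Siglech among them, while Tcf4 was detected in 18 cells, Bst2 in 14 and Cox6a2 in 13 (122 to 351 CPM summed, against 950 to 1122 CPM). Ly6c2 made most of the CD8 sum, at 762 to 900 CPM, so the sums do not compare dendritic transcripts. Cox6a2 went the other way, with its values under the other observations. Of 13 myeloid markers, 9 were at 0, Lyz2 among them, while Cst3 was detected in 45 cells (31.5%, against 30.5% of CD8 cells), Itgax in 38 and Cd68 in 3 (178 to 362 CPM summed, against 96.3 to 137 CPM). The part of such cells in the results was not tested. Ms4a1 was detected in 6.99% of NK-like cells and 9.46% of CD8 cells, against 98.4% of annotated germinal center B cells. Igkc was detected in 79.0% of NK-like cells and 80.3% of CD8 cells, and Cd74 in 73.4% and 71.3%, so these abundant B cell transcripts were detected about equally often in both cell types. The summed level of the 16 B cell markers was 1587 to 2218 CPM in the NK-like cells and 1369 to 1801 CPM in the CD8 cells. Of these 16 markers, 9 passed the filter of the comparison below, and only Ighm was called (log2 fold change -0.49, lower in NK-like cells). Of the myeloid markers, 2 passed and Itgax was higher (4.63): it encodes CD11c, which B220+ NK cells are known to carry, and stood at 155, 77.7, 187 and 58.8 CPM against 1.31 to 4.92 CPM in CD8 cells.

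T cell receptor transcripts divided into those found and those near 0. Trac, the constant region of the α chain, had a UMI in 7 of 143 NK-like cells (4.90%), against 83.1% of CD8 cells. Trbc1, by contrast, was detected in 94 NK-like cells (65.7%, against 52.8% of CD8 cells), Trbc2 in 48 (33.6%, against 96.0%) and Trdc in 35 (24.5%, against 2.79%). Tcrg-C1 and Tcrg-C2, of the γ chain, were at 0, while Tcrg-C4 had a UMI in 1 C cell and 1 CK cell. Trdv4, a variable gene of the δ chain, had a UMI in 2 WT, 2 C, 1 K and 2 CK cells. Of 15 genes of the receptor complex, 9 passed the filter, 7 were lower and Trdc was higher (1.67), and the rule that kept Cd3 out bears on this list. The cells without any UMI of these receptor genes numbered 25. Constant-region transcripts from unrearranged β and δ loci are known in NK cells, and counts from the 3' end do not show whether a locus was rearranged.

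**Figure D2:**
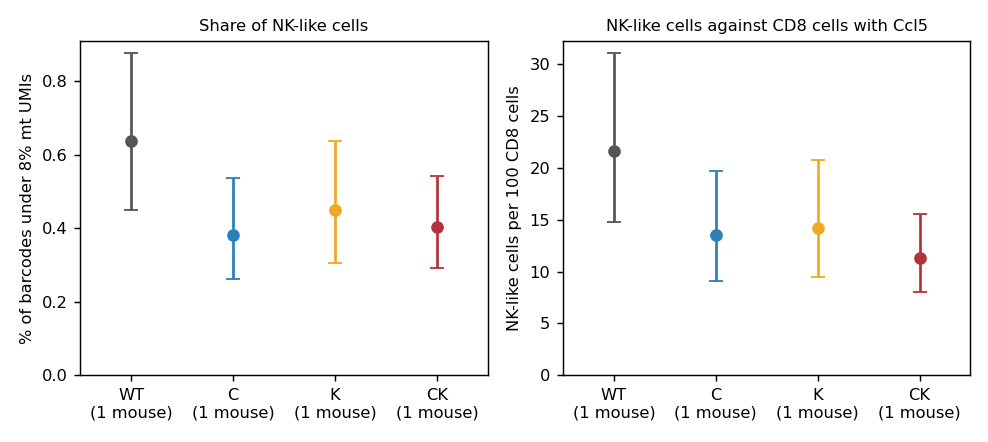
NK-like cells in each of the 4 libraries (x axis), as a percent of barcodes with less than 8% mitochondrial UMIs (left, y axis) and per 100 CD8 cells with Ccl5 (right, y axis), with exact 95% intervals that cover counting error only. WT is highest in both, at 0.638% and 21.6 per 100, and its intervals overlap those of C, K and CK.

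The share of NK-like cells was low in all 4 libraries. Of barcodes below the mitochondrial limit, NK-like cells made up 0.638% of the WT library (37 of 5800, 0.450 to 0.878%), 0.382% of the C library (32 of 8387, 0.261 to 0.538%), 0.451% of the K library (31 of 6881, 0.306 to 0.639%) and 0.404% of the CK library (43 of 10650, 0.292 to 0.543%). WT was highest and the 4 intervals overlapped. With no UMI of Cd79a or Cd79b allowed, the WT interval (0.534%, 0.363 to 0.758%) no longer overlapped that of C (0.203%, 0.118 to 0.324%), and with at least 2 UMIs of Klrd1 asked for, WT (0.569%, 0.392 to 0.798%) no longer overlapped CK (0.235%, 0.152 to 0.346%). Because bead enrichment and the sort for B220+IgD- cells set how many non-B cells enter a library, the NK-like cells were also counted against the CD8 cells. The WT library held 21.6 NK-like cells per 100 CD8 cells (14.7 to 31.0), the C library 13.6 (9.07 to 19.7), the K library 14.2 (9.43 to 20.8) and the CK library 11.3 (8.08 to 15.6). WT was again highest, its interval overlapped each of the others, and whether the share differs between genotypes cannot be told apart from differences between single mice and sorts. Among the members, 1 was called a doublet by Scrublet, and 0 barcode sequences were shared between members of different libraries.

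Cells at the edges of the rule were described once. There were 11 members with exactly 2 UMIs of Nkg7, of which 7 had Ncr1, and 10 barcodes with 1 UMI that passed everything else, of which 9 had it. A single Cd3 UMI kept out 26 barcodes, of which 22 had Ncr1, and 15 of these 26 UMIs were Cd3d. At 2 or more Cd3 UMIs, 17 of 56 barcodes had Ncr1 and 36 had Trac. The limit on Cd79 kept out 18 barcodes, of which 17 had Ncr1 and 11 were called doublets by Scrublet. Their median depth was 5220 UMIs.

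To describe the NK-like cells across genes, UMIs were summed over the cells of each type in each library and compared with the CD8 cells with Ccl5 of the same mice (171, 236, 218 and 379 cells in WT, C, K and CK). Of 4684 genes that passed the filter on low counts, 392 were higher in NK-like cells (8.37%) and 401 lower (8.56%) by the edgeR quasi-likelihood test at an adjusted p under 0.05. The p-values rest on 4 mice of 4 different genotypes. A gene with near 0 counts in either cell type passed the filter only through the other and so had to differ. The counts by gene group below, higher and lower, are therefore descriptions. In the 25 NK-like cells without T cell receptor UMIs, the counts were 43 and 201, with 221 of the 793 calls kept and 59 of the 793 genes on the other side of 0. The median log2 fold change of all genes tested was 0.01.

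NK cell receptors and their adaptors gave the highest differences. Ncr1 stood at 984, 1043, 933 and 1107 CPM in the NK-like cells of WT, C, K and CK, and at 0 to 3.52 CPM in the CD8 cells, from 5 UMIs in all. The values hardly varied between the 4 libraries (1017 ± 75.0 CPM, SD, n = 4), and the log2 fold change was 8.99 ± 0.25 (SE). Tyrobp stood at 3418, 3429, 4392 and 3478 CPM (log2 fold change 6.77 ± 0.33), and Fcer1g at 2728, 2708, 3261 and 2792 CPM (6.60 ± 0.31). The CD8 cells stood at 4.92 to 45.7 CPM for Tyrobp and 13.1 to 57.5 CPM for Fcer1g, so the cell types did not overlap for either adaptor. No p-value is given for these 3 genes, which owed their place in the test to the NK-like cells.

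Of the 14 activating receptor genes measured, all 14 passed the filter, 11 were higher in NK-like cells, 2 were lower (Cd226 and Slamf6) and Crtam was not called (log2 fold change 0.88, adjusted p = 0.0523). Their median log2 fold change was 4.75. Klrk1, encoding NKG2D, stood at 1269, 1088, 1340 and 931 CPM (log2 fold change 3.78), and Klrc2, encoding NKG2C, at 673, 499, 406 and 470 CPM (4.48). Both were above every CD8 library, where the highest values were 93.9 CPM for Klrk1 and 25.8 CPM for Klrc2. Cd226, the receptor DNAM-1, stood at 25.9 to 44.4 CPM in NK-like cells and 35.2 to 79.2 CPM in CD8 cells, and these ranges overlapped. It did not pass by DESeq2, nor with the WT or the CK library left out. Of 18 genes listed as inhibitory receptors, 8 passed the filter and 7 were higher, with a median of 3.87. The list holds Klre1 and Klri2, whose products can also form an activating pair, so it is not purely inhibitory. Klre1 was at 820, 888, 977 and 1136 CPM (4.22) and Klrc1, encoding NKG2A, at 104, 99.9, 98.8 and 147 CPM (2.10). Cd96 was not called (0.13, adjusted p = 0.81).

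Most of these receptors are encoded in the NK gene complex. From the first to the last of its Klr genes, Klrg genes not counted, it spanned chr6:128609227-131247362 (mm10). This was 2.64 Mb with 43 protein-coding genes, of which 24 are Klr genes. Klrg1 lies outside it, at chr6:122270596-122282882. Of these 43, 19 passed the filter, 15 were higher in NK-like cells and 1 (Cd69) was lower. The 14 Klr genes tested, without Klrd1, which the rule used, were all higher. BC035044 was the other gene that was higher, and 3 genes were not called.

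The Ly49 receptors (Klra genes) differed in how many cells they reached. Each NK cell is known to express a few Ly49 genes, in combinations that differ from cell to cell. Klra4, encoding activating Ly49D, was detected in 95 cells and Klra8, encoding activating Ly49H, in 92. Their levels were 1243, 1110, 1219 and 852 CPM for Klra4 (log2 fold change 8.19) and 846, 866, 692 and 529 CPM for Klra8 (7.23). Among inhibitory members, Klra7 (Ly49G) was detected in 68 cells, Klra3 (Ly49C) in 45, Klra9 (Ly49I) in 37 and Klra1 (Ly49A) in 36. Klra10 was at 0, Klra5 was detected in 1 cell and Klra6 in 6. Of 11 Ly49 genes in the matrix, 4 cells had none, 20 had 1, 43 had 2, 38 had 3 and 38 had 4 or more. After each cell was thinned to 1000 UMIs, which 141 cells reached, the counts were 22, 34, 52, 23 and 10, so the number of receptors read per cell moved with depth. Klra genes are near-identical copies, and reads shared between them are dropped by the counting, so their levels relative to each other are uncertain.

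**Figure D3:**
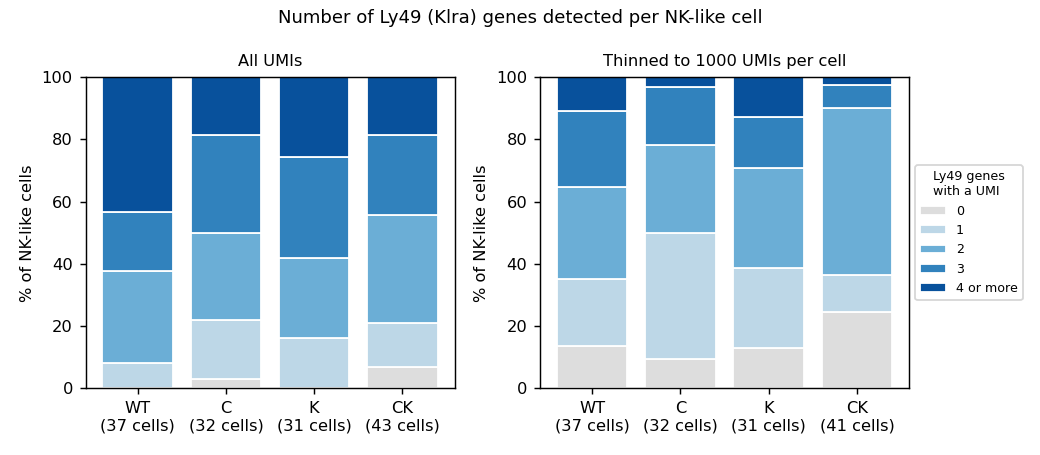
Percent of NK-like cells (y axis) by the number of Ly49 genes with at least 1 UMI (shades), in each library (x axis), with all UMIs (left) and after thinning to 1000 UMIs per cell (right). Cells with 4 or more Ly49 genes number 16 of 37 in WT with all UMIs and 4 of 37 after thinning.

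By the naming rule, the 10 highest genes called were Ncr1, Klra4, Khdc1a (log2 fold change 8.08), Klri2 (7.58), Tnfsf12 (7.40), Klra8, Klrb1c (6.78), Tyrobp, Klrb1a (6.71) and Fcer1g. Khdc1a stood at 138, 211, 76.9 and 245 CPM and Tnfsf12, the cytokine TWEAK, at 69.1, 122, 132 and 108 CPM. Each had 1 UMI in the CD8 cells. Both have near-identical or overlapping neighbours, so their counts are uncertain. At the other end stood genes of T cells. Slfn1, Fam169b and Cd5, an inhibitory co-receptor of T cells, had 0 UMIs in all NK-like cells and were at least 18.2-fold, 17.1-fold and 16.3-fold lower than in CD8 cells, with a floor of 3 counts over the group. Ly6a had 1 UMI, Dapl1, Gm8369 and Gpr183 had 2 each, and Bcl11b, a transcription factor needed for T cell identity, had 3. Their CD8 to NK ratios were 63.3 for Ly6a (11.3 to 2505), 53.4 for Dapl1 (14.8 to 442) and 35.4 for Bcl11b (12.1 to 172). Trac (-5.41) and Ly6c2 (-5.26) complete the 10, and the rule that kept Cd3 out bears on the T cell genes among them.

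**Figure D4:**
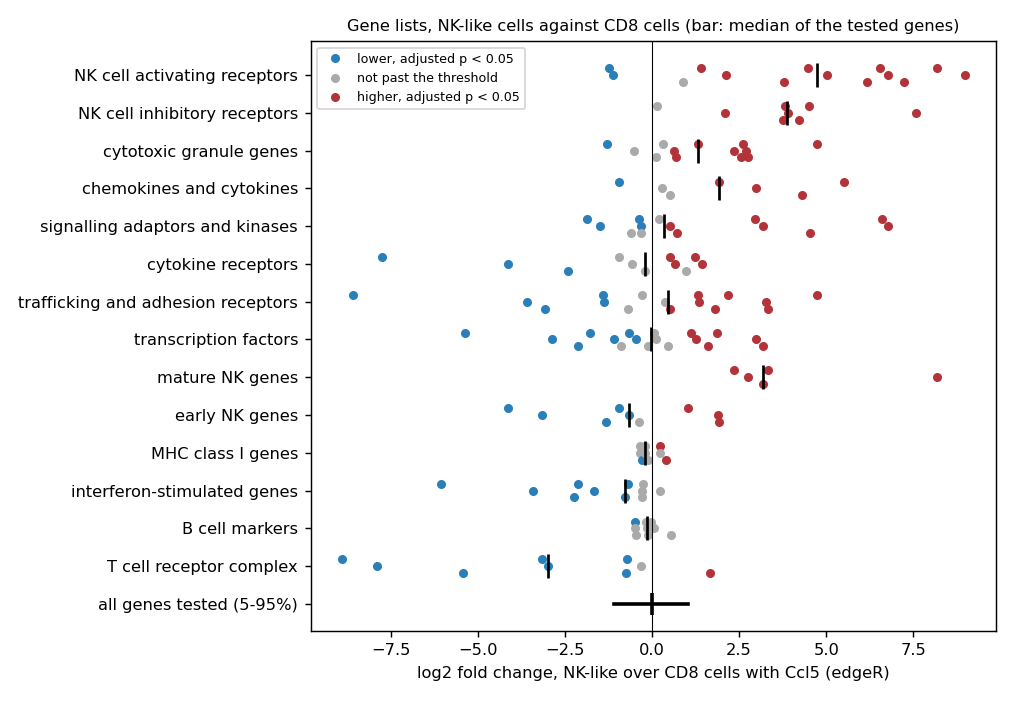
Log2 fold change, NK-like over CD8 cells with Ccl5 (x axis), of each gene tested in 14 gene lists (y axis), coloured by whether the adjusted p passed 0.05, with the median of each list as a bar and the 5 to 95% range of all genes tested at the bottom. The activating and inhibitory receptor lists have medians of 4.75 and 3.87, against 0.01 for all genes.

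Signalling genes differed in both directions. Of 17 adaptors and kinases measured, 14 passed the filter, 7 were higher and 4 lower, with a median of 0.35. Beside Tyrobp and Fcer1g, the higher genes included Syk, the kinase that these adaptors recruit, at 69.1, 33.3, 65.9 and 39.2 CPM (log2 fold change 2.96), Lyn (3.19) and Lat2 (4.53). Lat, an adaptor that acts behind the T cell receptor, was lower, with a log2 fold change of -1.88. Lck (-0.37) and Hcst (-0.32) were also called lower, but their CPM overlapped between the cell types and the shift that TMM scaling made in all genes, 0.27 on the log2 scale, was about as large.

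Granule genes were mostly higher. Of 16 measured, 13 passed the filter, 9 were higher and Gzmm was lower, with a median of 1.32. Gzma stood at 3556, 4217, 6852 and 4487 CPM in NK-like cells and at 155, 32.0, 205 and 208 CPM in CD8 cells (log2 fold change 4.74 ± 0.43, adjusted p = 0.00729). Without the WT library or without the K library its adjusted p was over 0.05, at log2 fold changes of 4.83 and 4.75. Prf1, perforin, stood at 432, 510, 362 and 510 CPM (2.36) and Gzmb at 112, 144, 132 and 196 CPM (2.74). The NK-like and CD8 values did not overlap for any of these 3 genes. Within the NK-like cells Gzma was uneven: 17 of 37 WT cells, 12 of 32 C cells, 4 of 31 K cells and 8 of 43 CK cells had no UMI, while the highest cell had 89.

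Chemokine and cytokine transcripts were also higher, and few cells held much of Ccl3, Ccl4 and Xcl1 in WT and C. Of 12 genes measured, 7 passed the filter, 4 were higher (Ccl3, Ccl4, Xcl1 and Ifng) and Ltb was lower. Xcl1, the chemokine that draws cross-presenting dendritic cells, stood at 397, 533, 275 and 127 CPM against 51.2 to 83.3 CPM in CD8 cells (log2 fold change 1.92, adjusted p = 5.83e-04). Of its UMIs, a single cell held 22 of 46 in WT and another 29 of 48 in C. Ccl4 stood at 1355, 1776, 121 and 216 CPM against 14.1 to 65.7 CPM in CD8 cells (4.31). A single cell, however, held 150 of its 160 UMIs in C and another 83 of 157 in WT. No p-value is given for Ccl4, which owed its place in the test to the NK-like cells. Without the WT library, or without the K library, Ccl4 did not pass the threshold.

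Among 22 transcription factors measured, 18 passed the filter, 6 were higher and 7 lower, with a median of -0.03. Eomes (302, 311, 494 and 225 CPM, log2 fold change 1.59), Id2 (1.87), Irf8 (133 to 209 CPM against 11.8 to 24.2 CPM), Zeb2 (log2 fold change 3.20), Tox (1.27) and Tbx21 (1.12), which encodes T-bet, were higher. Tbx21 went the other way in CK, at 19.6 CPM against 37.3 CPM in CD8 cells, and did not pass with the WT, C or K library left out, nor did Zeb2 without K, without Scrublet calls or against CD8 cells with Nkg7. Lef1 (-2.86) and Id3 (-2.14), genes of naive and memory T cells, were lower. For Lef1 the NK-like values of 25.9 to 88.8 CPM lay below all CD8 values of 222 to 360 CPM.

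Homing receptors split too. Of 20 trafficking and adhesion genes measured, 16 passed the filter, 8 were higher and 5 lower. S1pr5, the sphingosine receptor by which NK cells leave tissues, stood at 77.7, 44.4, 76.9 and 108 CPM against 2.63 to 12.1 CPM in CD8 cells (log2 fold change 3.32), while S1pr1, its T cell counterpart, stood at 25.9, 0, 32.9 and 29.4 CPM against 135 to 187 CPM (-3.07). The 2 receptors of the same ligand thus stood in opposite order, with no overlap between the cell types for either. Itga2, encoding CD49b (4.73), and Ccr2 (3.28) were higher, and Ccr7 (-3.59), Cxcr3 (-1.40) and Cd69 (-1.39) were lower. The NK-like and CD8 ranges of Cd69 overlapped, and in C it stood at 133 CPM against 128 CPM in CD8 cells. Cxcr6 had 0 UMIs in NK-like cells, against 89.5 to 104 CPM in CD8 cells.

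Genes of NK cell maturation were read in 2 lists. Of 9 mature NK genes measured, 5 passed the filter and all 5 were higher than in CD8 cells (Cma1, S1pr5, Zeb2, Gzmb and Prf1). Among those that did not pass, Prdm1 was detected in 0 NK-like cells and Cx3cr1 in 2 WT cells only. Klrg1 was detected in 1, 2, 1 and 4 cells of WT, C, K and CK. A comparison with CD8 cells does not show the maturation stage of the NK-like cells. Of 10 early NK genes, 9 passed, 3 were higher (Xcl1, Cd7 and Ctla2a) and 5 lower (Il7r, Thy1, Cd27, Ltb and Tcf7). In single cells the lists were not exclusive: 104 of 143 cells had UMIs of both, 31 of early genes only, 7 of mature genes only and 1 of neither. Itgam, encoding CD11b of mature NK cells, was detected in 6 cells only, and Cd7 in 114. Il7r, the interleukin-7 receptor of early NK cells and other innate lymphoid cells, was found in 9 of 37 WT cells and in 0 C, 0 K and 2 CK cells, against 75.8% of CD8 cells. After thinning to 1000 UMIs these were 4, 0, 0 and 2 cells. Of the 11 cells with Il7r, 10 also had Ncr1, 6 had Eomes and 0 had Cxcr6, Itga1, Tmem176a, Tmem176b or Tnfsf10, from the list of type 1 innate lymphoid markers. Tnfsf10 was detected in 1 member and the others of these genes in 0, so almost no overlap was possible.

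**Figure D5:**
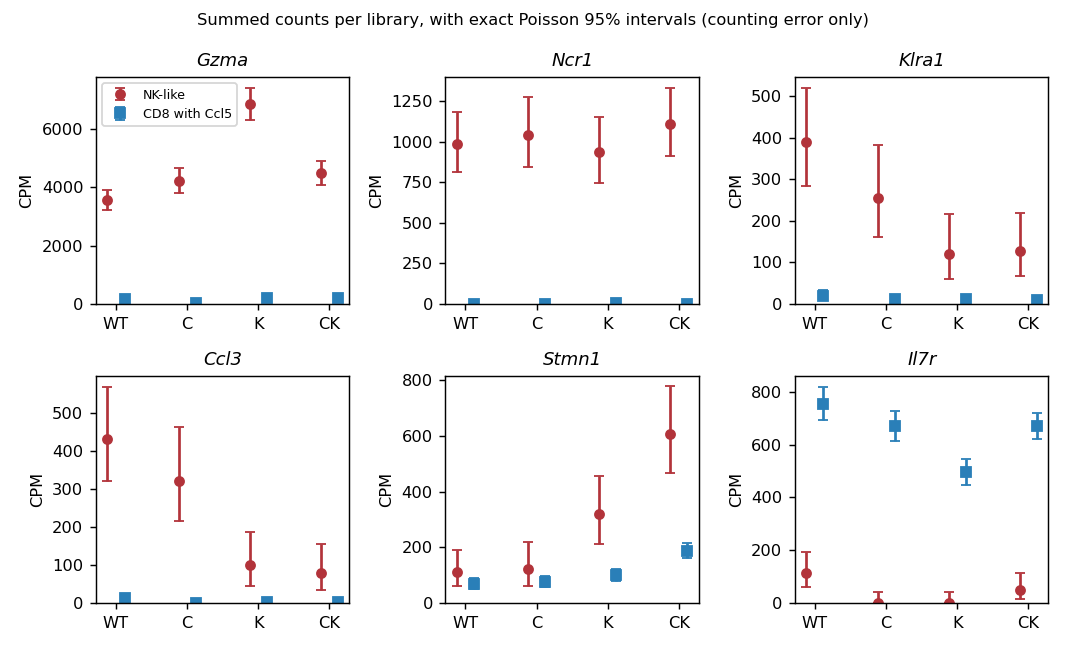
Levels in CPM (y axes, from 0) of 6 genes in the NK-like cells (circles) and the CD8 cells with Ccl5 (squares) of each library (x axes), with exact Poisson 95% intervals for counting error only. Ncr1 lies within 933 to 1107 CPM in the NK-like cells, whereas Ccl3 ranges from 432 (WT) to 78.4 CPM (CK).

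The 250 bases before the annotated start of 4 of these genes are shown, a receptor, an NK antigen, a granule gene and a chemokine (RefSeq starts, GRCm38.p6), all of which hold letters searched for. RUNX factors and the T-box factors T-bet and EOMES are known regulators of NK cells, so the windows were searched on both strands for the letters TGTGGT (reverse ACCACA) and TCACACC (reverse GGTGTGA), which are in capitals. Each sequence reads 5' to 3' on the strand of its gene, and these are the windows of Ncr1 (chr7:4337465-4337714, plus strand), Klrb1c (chr6:128788642-128788891, minus), Gzma (chr13:113100982-113101231, minus) and Xcl1 (chr1:164935523-164935772, minus).
Ncr1: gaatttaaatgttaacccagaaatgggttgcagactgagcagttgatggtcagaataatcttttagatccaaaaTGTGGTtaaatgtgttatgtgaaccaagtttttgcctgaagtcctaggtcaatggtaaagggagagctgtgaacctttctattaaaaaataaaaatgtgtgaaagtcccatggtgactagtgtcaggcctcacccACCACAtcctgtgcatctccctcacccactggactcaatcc
Klrb1c: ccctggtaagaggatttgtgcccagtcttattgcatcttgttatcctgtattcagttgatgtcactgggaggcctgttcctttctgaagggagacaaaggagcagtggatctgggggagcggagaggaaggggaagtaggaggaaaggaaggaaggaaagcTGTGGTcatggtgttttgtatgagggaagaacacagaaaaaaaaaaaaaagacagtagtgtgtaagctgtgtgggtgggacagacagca
Gzma: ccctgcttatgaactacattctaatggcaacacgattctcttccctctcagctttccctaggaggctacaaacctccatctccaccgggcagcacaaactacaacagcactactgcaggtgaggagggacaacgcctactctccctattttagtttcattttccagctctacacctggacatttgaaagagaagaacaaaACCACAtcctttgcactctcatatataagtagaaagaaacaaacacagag
Xcl1: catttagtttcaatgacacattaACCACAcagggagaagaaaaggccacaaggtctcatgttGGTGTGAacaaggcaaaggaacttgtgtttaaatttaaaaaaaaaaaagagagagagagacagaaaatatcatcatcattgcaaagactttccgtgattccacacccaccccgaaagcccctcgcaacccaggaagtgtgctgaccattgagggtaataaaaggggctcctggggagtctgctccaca
Ncr1 held the RUNX letters at -176 and -41 from its start, Klrb1c at -89, Gzma at -50 and Xcl1 at -227, and Xcl1 also held the T-box letters at -188. Among other windows read, those of Prf1, Ccl3, Klrc2 and Nkg7 and the upstream start of Klre1 held the RUNX letters, while those of Eomes, Klra4, Klra8 and Fcer1g and the downstream start of Klre1 held neither, so the 4 shown do not stand for the others. Over the promoters of genes higher in NK-like cells, 49 of 311 held the RUNX letters (15.8%), against 14.7% of genes lower, 13.4% of genes tested and 15.9% of all 27025 genes with a promoter. The T-box letters stood in 5.79% (18 of 311) of the higher genes, 4.24% (13 of 307) of the lower genes, 3.31% of genes tested and 3.84% of all. A match describes the letters in the window, not binding.

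Across genotypes the NK-like cells gave 4 values per gene and no test. Genes were counted where they had at least 20 UMIs over both libraries. In C, 56 genes of 1618 were at least 2-fold above WT (3.46%) and 62 below (3.83%). In K, 58 of 1557 were above (3.73%) and 151 below (9.70%), and in CK 86 of 1723 were above (4.99%) and 84 below (4.88%). Of the 151 genes lower in K, 35 (23.2%) were also at least 2-fold lower in the K CD8 cells, in which 63 of the same 1557 genes were. Over all genes with at least 20 UMIs in the CD8 cells, 654 of 6134 were lower in K and 78 higher. Lower genes there numbered 141 of 6305 in C and 143 of 6724 in CK, so more genes were lower in K in both cell types. These 3 comparisons share the WT library.

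Few NK receptor genes were past 2-fold between libraries, as with all genes counted above. The summed level of the activating receptors was 7130, 6536, 6391 and 5761 CPM in WT, C, K and CK, and the median log2 ratios of C, K and CK to WT were -0.22, -0.05 and -0.55, against 0.02, -0.03 and 0.05 for all genes. The genes listed as inhibitory, with Klre1 and Klri2 among them, summed to 3142, 2808, 2998 and 3047 CPM. Among activating receptor genes with enough UMIs, 0 were past 2-fold in K, 1 of 11 in C (Cd244, below WT) and 1 of 10 in CK (Klrb1f, below WT). Ncr1 in CK was 1.13 times WT (0.86 to 1.47). Among 8 genes of the inhibitory list, Klra9 was the only one past 2-fold in C and Klra1 the only one in K and in CK, all below WT. For Klra1, its 4 levels were 388, 255, 121 and 127 CPM, a CK to WT ratio of 0.33 (0.16 to 0.62), from 15, 9, 5 and 7 cells with a UMI. Gzma was lowest in WT and highest in K, at 1.93 times WT (1.70 to 2.19), an interval that treats UMIs as independent although cells differ.

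Ccl3, Ccl4 and Xcl1 were lowest in K and CK with all cells, and few cells set much of this. Ccl3 stood at 432, 322, 98.8 and 78.4 CPM, a CK to WT ratio of 0.18 (0.074 to 0.39), and it was the lowest of the genes named by ratio. A single WT cell held 32 of its 50 UMIs and a single C cell 17 of 29. With the top cell of each library left out, Ccl3 stood at 162, 139, 69.0 and 50.5 CPM, so the order remained and the difference shrank. Ccl4 without its top cells stood at 664, 115, 68.4 and 90.8 CPM, which put C near K and CK. For Xcl1, a single cell held 22 of 46 UMIs in WT and another 29 of 48 in C. Without the top cells Xcl1 stood at 213, 218, 227 and 111 CPM, so K was no longer below WT and C, and CK alone was lower. Of 5 chemokine and cytokine genes with enough UMIs, 4 were at least 2-fold below WT in CK with all cells (Ccl3, Ccl4, Ltb and Xcl1) and 2 in K (Ccl3 and Ccl4). The summed level of immediate early genes was 1373, 1265, 1285 and 1352 CPM, with 0 of 5 genes past 2-fold in each mutant.

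Genes of cell division were highest in CK, and mainly in few cells. Stmn1, a microtubule regulator of dividing cells, stood at 112, 122, 318 and 607 CPM, 5.41 times WT in CK (2.95 to 10.7), and in CK 3 cells held 49 of its 62 UMIs. Hmgb2 stood at 328, 355, 659 and 999 CPM (CK to WT 3.05, 2.08 to 4.55). The 10 proliferation genes together had 28, 31, 48 and 141 UMIs, of which the top 3 cells held 7, 20, 37 and 116. Mki67 was detected in 2, 0, 1 and 3 cells. The CD8 cells were highest in CK too: there the 10 genes summed to 214, 198, 293 and 519 CPM. In NK-like cells the sums were 242, 344, 527 and 1381 CPM. The CK to WT ratio in CD8 cells was 2.78 for Stmn1 (2.04 to 3.86) and 1.28 for Hmgb2 (1.08 to 1.51). Trbc2 (155, 311, 242 and 460 CPM, CK to WT 2.96), Alyref (2.77) and Lsm7 (2.68) completed the 5 genes named as highest in CK.

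Zeb2, Klra1, Cap1 and Ikzf1 followed Ccl3 as lowest in CK. Zeb2, a factor of late NK maturation, stood at 311, 222, 176 and 98.0 CPM, a CK to WT ratio of 0.32 (0.14 to 0.65), and in CD8 cells, at 5.25 to 35.4 CPM, CK was 6.74 times WT (2.43 to 26.0). Cap1 (0.43, 0.21 to 0.81) and Ikzf1 (0.44, 0.23 to 0.78) were close to WT in the CD8 cells, at ratios of 1.00 and 1.10. The targeted genes were read near the limit of counting, where 3 UMIs correspond to 25.9 to 33.3 CPM. Crebbp stood at 60.4, 33.3, 0 and 68.6 CPM, from 7, 3, 0 and 7 UMIs. Kmt2d stood at 17.3, 33.3, 22.0 and 19.6 CPM, from 2, 3, 2 and 2 UMIs. Whether either differed between genotypes was not tested.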

How the data were processed

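Sorted splenic B220+IgD- cells of 4 mice were profiled with the 10x Genomics 3' kit, 1 library per genotype. The deposited values are raw UMI counts per gene and barcode, which the authors made with Cell Ranger (3.0 per the submitters' processing notes, with Seurat 4.0 for annotation) on mm10. Cell Ranger counts a read only where it maps to a single gene. Library totals were 33270825 to 39803865 UMIs. The deposited cell table, which names annotated cells, was used only to leave those out and for comparison.

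UMIs were summed per library and cell type. edgeR 4.0.16 (TMM, filterByExpr, quasi-likelihood, library as a term, Benjamini-Hochberg over all genes tested) compared NK-like with CD8 cells, and the steps were tested on simulated data with known changes. CPM are UMIs per 1000000 UMIs of the summed cells and are not corrected for length, which 3' counts do not need. TMM moved the median of all genes from 0.27 to 0.01 on the log2 scale, relative to ratios of CPM. Shares carry exact Clopper-Pearson intervals, ratios exact conditional binomial intervals. Genes that either rule read were left out of the calls. Scrublet was run per library and called 3.36 to 6.34% of barcodes; its calls stayed in, except in an alternative. The genes named were the 10 highest and 10 lowest of those called with the same side in every library and at least 100 CPM in the higher cell type, the 5 highest and 5 lowest by CK over WT among genes with 300 CPM in either library and 30 UMIs over both and with all 3 mutants either above or below WT, and members of the lists. The members, lists and tests were chosen with earlier results of these data known. Alternatives were DESeq2 1.42.0, other size factors, filters, thinning to 1000 UMIs and left-out libraries. Positions are mm10, and promoters are from RefSeq (GRCm38.p6). Some genes of the lists are counted but not reported by name here.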

Additional observations from a re-analysis of the deposited data

Results flagged for a closer look

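Ncr1, the NKp46 receptor, was also found in barcodes outside the rule, which no comparison above uses: 142 barcodes with at least 1 UMI of Ncr1 were not members, beside the 124 that were. Of these 142, 73 had a UMI of Cd3e, Cd3d or Cd3g, 44 were over the limit on Cd79a and Cd79b and 22 were over the mitochondrial limit, and a barcode can count under several of these. Among barcodes that met every other condition, 22 with Ncr1 were kept out only by a single Cd3 UMI, 17 only by 3 or more Cd79 UMIs, and 9 only by the mitochondrial limit. The share of Ncr1 in those groups was 84.6% of 26, 94.4% of 18 and 81.8% of 11, against 86.7% of the members.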

How the results depend on the processing

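Between genotypes, no paired analysis was possible because each genotype has 1 library. NK-like and CD8 cells of a library come from the same mouse and were compared with the library as a block; without that pairing 291 genes were higher and 317 lower, and 606 of the 793 calls were kept. The share of NK-like cells moved outside its interval under some settings: with barcodes thinned to 1000 UMIs it was 0.419% in WT and 0.279% in CK, with Klrd1 of at least 2 UMIs 0.235% in CK (0.569% in WT, intervals apart), and with no Cd79 UMI it was 0.534, 0.203, 0.247 and 0.291% in WT, C, K and CK (intervals of WT and C apart). Without any cell with a T cell receptor UMI it was 0.0862, 0.0715, 0.0581 and 0.0939% in WT, C, K and CK, from 25 cells in all. Against barcodes outside the annotation, chosen after seeing the data, it was 0.721% in K and 0.642% in CK. Genes higher and lower than in CD8 cells numbered 234 and 255 by DESeq2, 155 and 169 after thinning and 43 and 201 without T cell receptor UMIs (59 of the 793 genes then on the other side of 0), and with each library left out 288 to 361 and 340 to 360. Genes past 2-fold above and below WT numbered 12 and 9 (C), 11 and 41 (K) and 24 and 16 (CK) with at least 40 UMIs, 9 and 10, 21 and 4, and 15 and 9 without T cell receptor UMIs, and 21 and 13, 14 and 25, and 30 and 14 after thinning. Genes lower in K numbered 78 relative to the ratio in CD8 cells. The smaller counts follow in part from fewer cells or UMIs. Of the 80 genes checked by name, Cd96 turned to -0.039 with no filter, -0.038 to 0.21 with a library left out (lowest without the WT library), -0.13 after thinning and -0.85 without T cell receptor UMIs, where Il2rb (-0.031), H2-K1 (-0.047) and H2-D1 (-0.074) also turned. Of 1002 gene and setting pairs, 927 kept direction and side of the threshold, 67 lost the call and 1 gained it. Depth limits a library to about 3 UMIs, 25.9 to 33.3 CPM.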

Other observations

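Interferon-stimulated genes were read as a group that the text above does not describe. Of 16 measured, 11 passed the filter on low counts, with a median log2 fold change of -0.76. By the edgeR test 7 were lower in NK-like cells than in CD8 cells (among them Ly6a, Ifit3, Bst2 and Isg15) and 4 were not called. Of all genes tested, 8.56% were lower. Ly6a is among the 10 lowest genes named above. Ly6a and Ifit3 had 1 and 2 UMIs in the NK-like cells, and Rtp4, also lower, had 2, 2, 0 and 0 in WT, C, K and CK. These genes passed the filter only through the CD8 cells. Cytokine receptors split: of 16 measured, 11 passed, and Il18rap (log2 fold change 1.43), Il2rb (1.24), Il18r1 and Ifngr1 were higher while Il6ra, Il7r (-4.12) and Il21r were lower. Il2rb, a chain of the interleukin-2 and interleukin-15 receptors on which NK cells depend, stood at 535, 400, 406 and 372 CPM against 140 to 166 CPM in CD8 cells, and was near 0 (-0.031) in the 25 cells without T cell receptor UMIs.

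Of 10 MHC class I genes measured, 9 passed the filter, H2-D1 (0.39) and H2-K1 (0.22) were higher and B2m (-0.27) was called lower. The B2m call is as large as the shift of TMM scaling (0.27): its mean was 1567 CPM in NK-like and 1568 CPM in CD8 cells, and in C the NK-like value was the higher (1964 against 1566 CPM). The direction of H2-D1 and H2-K1 turned in the 25 cells without T cell receptor UMIs. Kit, the receptor for stem cell factor, was detected in 8 of 37 WT cells, 8 of 32 C cells, 2 of 31 K cells and 4 of 43 CK cells. Cox6a2, from the list of plasmacytoid dendritic genes, stood at 86.3, 22.2, 264 and 29.4 CPM in NK-like cells, where a single K cell held 16 of 24 UMIs, and at 0 to 14.0 CPM in CD8 cells.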
